A study of Caenorhabditis elegans with 2 samples.

Results

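The left arm of chromosome V of the nematode Caenorhabditis elegans was taken as the first 30% of the 1 kb bins of V, by position alone. It holds 6276 of the 100257 bins of the deposited coverage table, 6.26% of them, and runs from V:1-6276000 in the positions of the table. Both libraries of the study hold small RNA of young adult hermaphrodites: 1 is from N2, the standard wild-type strain, and the other (the coIP) from RNA pulled down along with HRDE-1. In the coIP, HRDE-1 carrying a FLAG and StrepII tag was bound to an anti-FLAG resin from the lysate of many pooled, ground adults. The RNA was cloned by a method that does not require a 5′ monophosphate. The labels give 1 protocol text for both libraries, name the strain of the coIP only as HRDE-1-coIP, and do not say how the tagged gene was made or how the N2 RNA was prepared. There was 1 library per group, so no difference has a replicate check. Intervals on shares and ratios cover counting error only. All intervals on medians come from the order of the bins taken as independent, although neighbouring bins can share signal and bins are not replicates.

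HRDE-1 belongs to the Argonaute proteins and acts in the nuclei of the germline. It binds secondary small interfering RNAs, which RNA-dependent RNA polymerases copy from target transcripts, and it directs transcriptional silencing and repressive histone methylation at the matching genes, which can be inherited over generations. The arms of the autosomes of C. elegans are known to be richer in repeats and in repressive chromatin than the centres, and those of V hold large families of chemoreceptor and nuclear hormone receptor genes. GRTS and GRH are the authors' marks on bins. From published work on HRDE-1 the letters are known as short for transcriptional silencing (GRTS) and heterochromatin (GRH) that depend on nuclear RNAi in the germline. How they were assigned in this table is not stated.

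The signal of each library was divided by its sum and set to parts in 1000000 (ppm) of that library. Bins whose mean over N2 and coIP was at least 0.351 ppm counted as measured, and a measured bin was called higher or lower when the coIP was at least 4-fold above or below N2 after 0.121 ppm had been added to both. From the steps between values, 1 read was worth 0.232 of the deposited units in N2 and 0.169 in the coIP above a floor of 0.1. Many bins held fractions of a read, so values are given as read equivalents, which are not counts. N2 had 2161949 read equivalents in the whole table and 34633 in the arm, and the coIP had 4832736 and 216013.

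The genome build of the table is not given in the sources used here, so gene names were taken from the WBcel235 annotation only after a check of its positions. Of 35 tRNA, snRNA, snoRNA and miRNA genes that WBcel235 places in the arm, 15 fell in lower bins at the positions as given. At 20 shifts of up to 10 kb to either side, between 0 and 4 did. In the rest of V, 111 of 181 such genes fell in lower bins without a shift and between 20 and 38 with one. Within the arm, 2 of 7 such genes from 0 to 2 Mb (both of them in the run V:857001-860000) fell in lower bins without a shift and at most 1 with one, 7 of 20 against at most 3 from 2 to 4 Mb, and 6 of 8 against at most 2 beyond. The names below remain uncertain, most of all in the first 2 Mb, where the check rests on a single place, and the finding of short RNA genes in lower bins, having been used for this check, is not a separate finding. The table does not separate strands, so reads of a gene and of an antisense or overlapping gene cannot be told apart.

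The arm took a larger share of the coIP than of N2, and both shares were below its 6.26% of the bins. It held 1.60% of the N2 library (95% exact binomial interval 1.59% to 1.62%) and 4.47% of the coIP (4.45% to 4.49%), a ratio of shares of 2.79 (2.76 to 2.82). The ratio was 1.72 without the 10 highest bins of either library in the totals, 1.29 over bins without fractions of N2 reads and 4.06 over the first 20% of V. With the library totals, the centre of V held 11.9% of N2 and 4.36% of the coIP, a ratio of 0.367. The right arm held 8.54% and 6.48%, a ratio of 0.760. All arms of the other chromosomes together gave a ratio of 1.40. Bins with a short RNA gene, such as a tRNA gene, held 85.6% of N2 in the centre and 75.7% in the right arm, beside 12.6% in the left arm. Both libraries in the left arm were spread over many bins, where N2 in the centre was not: 28.7% of the arm's N2 signal lay in its 10 strongest bins, against 80.9% in the centre and 54.0% in the right arm.

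Of the 3046 measured bins of the arm, 755 (24.8%) were higher in the coIP, against 19.4% of the measured bins of the whole table, and 160 (5.25%) were lower, against 9.04%. The right arm had 21.7% higher and 9.01% lower, and the centre of V had 13.8% higher and 12.6% lower. The median log2 ratio of the measured bins, coIP over N2, was 1.05 in the left arm, with an interval of 1.03 to 1.06 from the order of the bins taken as independent. It was 1.03 in the right arm, 0.36 in the centre and 0.73 over the whole table. Read against the table's median, 1785 measured bins of the arm (58.6%) lay above it. Scaling by the median of ratios gave 533 higher and 206 lower bins, and totals without the 10 highest bins of either library gave 489 and 394. No N2 read fell in 3125 bins of the arm (49.8%) and no read of either library in 1104 (17.6%), and without any minimum on signal the median was -0.06. That median takes in the 1104 empty bins, which each have a log2 ratio of -0.39 by construction. Their floor of 0.1 equals 0.195 ppm in N2 and 0.121 ppm in the coIP. At a minimum 10 times higher, 385 of 829 bins (46.4%) were higher and 58 lower, against 32.7% and 11.8% over the whole table. In RNA of whole animals, fewer cells that hold a small RNA and less of it per cell cannot be told apart.

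**Figure D1:**
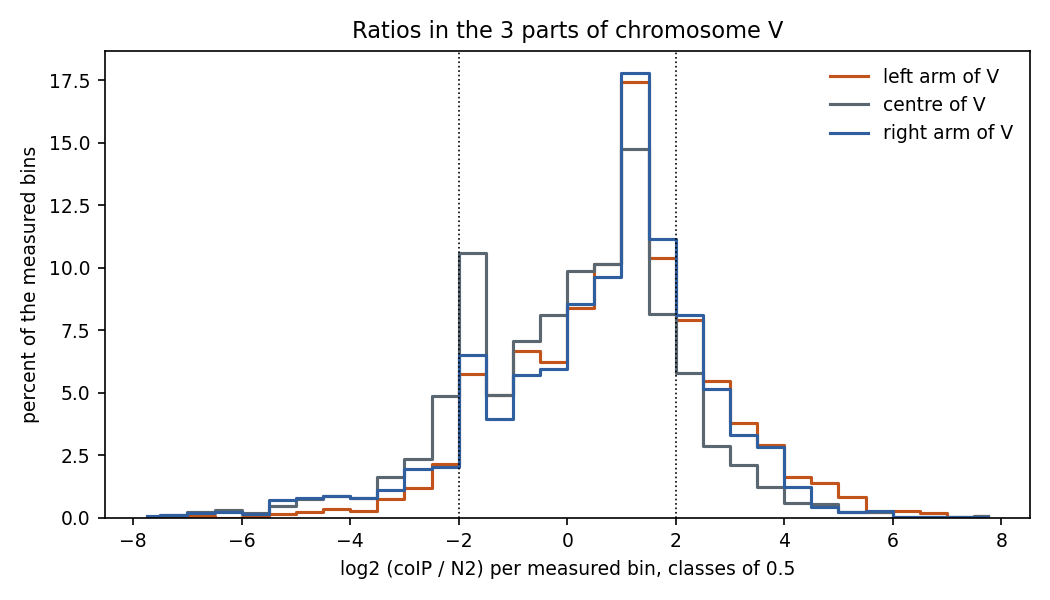
Percent of the measured bins of each part of V by log2 ratio of coIP over N2, in classes of 0.5, with dotted lines at 4-fold. The left arm has 24.8% of its measured bins past the right line and 5.25% past the left one, and the centre has 13.8% and 12.6%.

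Signal was uneven along the arm. The first 500 kb, at the tip of the chromosome, had a coIP signal of 17.8 ppm per kb and an N2 signal of 2.97 ppm per kb, a ratio of shares of 6.32 (6.09 to 6.56). Of its 8907 ppm of coIP signal, 5142 ppm lay in 1 run over nhr-15, V:310001-324000, described below. The first 500 kb carried 20.03% of the arm's coIP signal and 8.85% of its N2 signal, and 139 of its 334 measured bins (41.6%) were higher. Within it, the outermost 50 kb had 25 higher bins of 38 measured and a median log2 ratio of 2.66. From 3 to 3.5 Mb both libraries were at their lowest, with 2.28 ppm per kb in the coIP and 0.612 in N2, yet the ratio there was still 5.14 (4.67 to 5.66). A further maximum of the coIP lay from 5 to 5.5 Mb, where 13.5 ppm per kb stood against 4.47 in N2 and where 22 of the arm's 25 GRTS bins and 7 of its 11 GRH bins lie.

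The stretches next to the centre looked different from the tip. From 5.5 to 6 Mb N2 had 6.73 ppm per kb and the coIP 6.59, a ratio of shares of 0.982 (0.955 to 1.01). That ratio rests largely on single bins: V:5588001-5589000 supplied 44.0% of the N2 signal there, and V:5754001-5755000 supplied 41.0% of the coIP signal. The median log2 ratio of the stretch was 0.45 (0.23 to 0.70). From 6 Mb to the end of the arm the median log2 ratio was -0.21 (-0.77 to 0.48), with 11.1% of measured bins higher. From 4 to 4.5 Mb the ratio of shares was 0.796 (0.765 to 0.829), and 1 bin, the tRNA bin described below, supplied 63.4% of the N2 signal there. At the border itself, the last 100 bins of the arm had 4 higher and 7 lower of 58 measured and a median of -0.47, and the first 100 bins of the centre had 13 higher and 7 lower of 43 and a median of 1.05. When the arm was cut at the first 20% of the bins, its N2 share was 0.739% and its coIP share 3.00%.

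**Figure D2:**
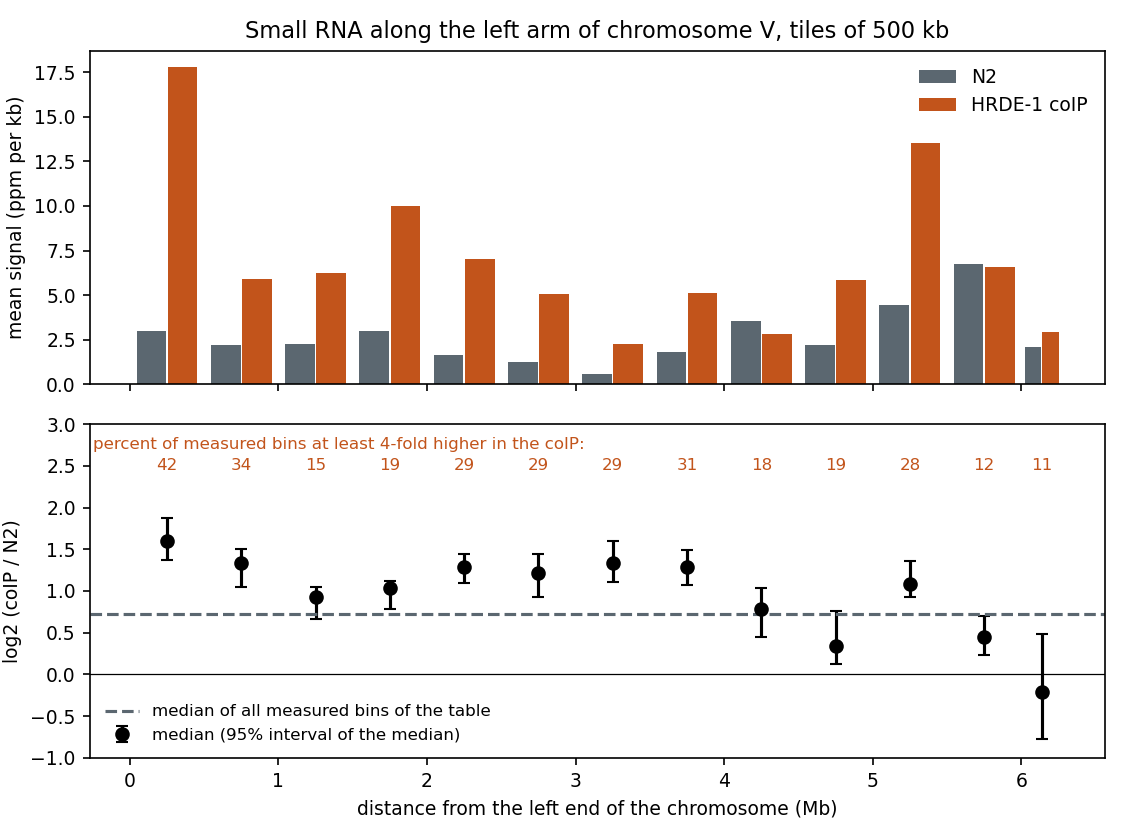
Signal of both libraries in ppm per kb and median log2 ratio of measured bins in stretches of 500 kb from the left end of V, with 95% intervals on the medians. The coIP stands highest in the first stretch at 17.8 ppm per kb and again at 13.5 from 5 to 5.5 Mb. In the first stretch 5142 of its 8907 ppm lie in the run over nhr-15. The median log2 ratio is highest at the tip, at 1.60, and lowest beside the centre, at -0.21.

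Higher bins formed 324 runs, with gaps of 1 bin bridged, and these runs carried 72.1% of the arm's coIP signal and 27.5% of its N2 signal. Of the runs, 165 (50.9%) were single bins and 11 were at least 10 bins long. The 8 runs with the largest coIP signal, which were chosen on that signal, together held 37.2% of the arm's coIP signal and 19.4% of its N2 signal in 63 bins.

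The largest run, V:310001-324000, covers nhr-15, a nuclear hormone receptor gene, and the adjoining phf-10, together with the snoRNA gene F33E11.7. It held 728 ppm in N2 and 5142 ppm in the coIP, a ratio of 7.03 (6.69 to 7.40), and 11.6% of all coIP signal of the arm. Each of the 11 bins of nhr-15 was higher, with 15.2 to 126 ppm in N2 and 95.2 to 1052 ppm in the coIP. Outside it the 3 bins before the run reached at most 2.99 ppm in the coIP, and the bin after it held 1.14 ppm. Only 4 of the 14 bins had whole N2 reads. The bin of F33E11.7, with 66.2 ppm in N2 and 359 in the coIP, had a log2 ratio of 2.44, between the 2.75 and 2.40 of the bins on either side. One bin of the run, V:320001-321000, carries a GRTS mark.

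Behind it came V:1697001-1702000 over the pseudogene Y46H3C.6, with 679.7 ppm in N2 and 3027 ppm in the coIP, a ratio of 4.43 (4.20 to 4.67). Its strongest bin, V:1698001-1699000, held the most coIP signal of any bin of the arm, 1639 ppm, beside 422 ppm in N2. That bin was high in both libraries and was less than 4-fold apart, with a log2 ratio of 1.96. The single GRH mark in the pseudogene sat on V:1700001-1701000, which had no N2 read and about 1 read in the coIP while the bin before it held 152 ppm in N2 and 746 in the coIP.

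Next in coIP signal was V:5754001-5757000, over K09H11.11 and C53A3.3, with 301 ppm in N2 and 1681 in the coIP, a ratio of 5.56 (5.14 to 6.03). Its GRTS bin, V:5754001-5755000, supplied 1351 ppm of the coIP signal. V:1198001-1202000, beside Y50D4A.6, held 319 ppm in N2 and 1583 in the coIP, a ratio of 4.93 (4.56 to 5.33), with all 4 bins higher. V:2255001-2259000, over F41B5.1 and the nuclear hormone receptor gene nhr-182, held 283.5 and 1225 ppm, a ratio of 4.30 (3.96 to 4.68), and 876 ppm of its coIP signal lay in 1 bin of F41B5.1. All 3 runs were short, of 3 or 4 bins.

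V:4553001-4562000 lies over a cluster of Y61A9LA genes and has GRH marks on its first 2 bins. It held 224 ppm in N2 and 1330 in the coIP, a ratio of 5.92 (5.40 to 6.51), and the marked pair carried 989 ppm of it.

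The eighth run, V:5123001-5127000, lies in sid-1, which encodes the membrane channel that imports double-stranded RNA in systemic RNA interference. It held 112 ppm in N2 and 779.5 ppm in the coIP, a ratio of 6.97 (6.12 to 7.96), and 1 bin, V:5125001-5126000, held 658 ppm. Over the 7 bins of sid-1 the signal was 17.9 ppm per kb in N2 and 115 in the coIP, a ratio of 6.45 (5.71 to 7.32), with 4 bins higher. Signal was uneven within the gene, whose weakest bin held 0.387 ppm in the coIP.

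Of 73 genes on a list of small RNA pathway genes, 5 lie in the arm, and sid-1 was the only 1 of the 5 with a higher bin. The Argonaute gene ergo-1 had 1.43 ppm per kb in N2 and 3.12 in the coIP, a ratio of 2.41 (1.56 to 3.87). The gene of the DEAD-box helicase mut-14, which acts with mutator proteins in siRNA amplification, had 14.4 and 22.4 ppm per kb, a ratio of 1.56 (1.17 to 2.10). Its paralogue smut-1 had 6.99 and 16.5, a ratio of 2.39 (1.61 to 3.66), and reads matching both paralogues may have been shared between them. The Argonaute gene wago-10 went the other way, with 2.02 ppm per kb in N2 and 0.215 in the coIP, from about 20.1 and 2.31 read equivalents, and 2 of its 5 bins were lower.

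**Figure D3:**
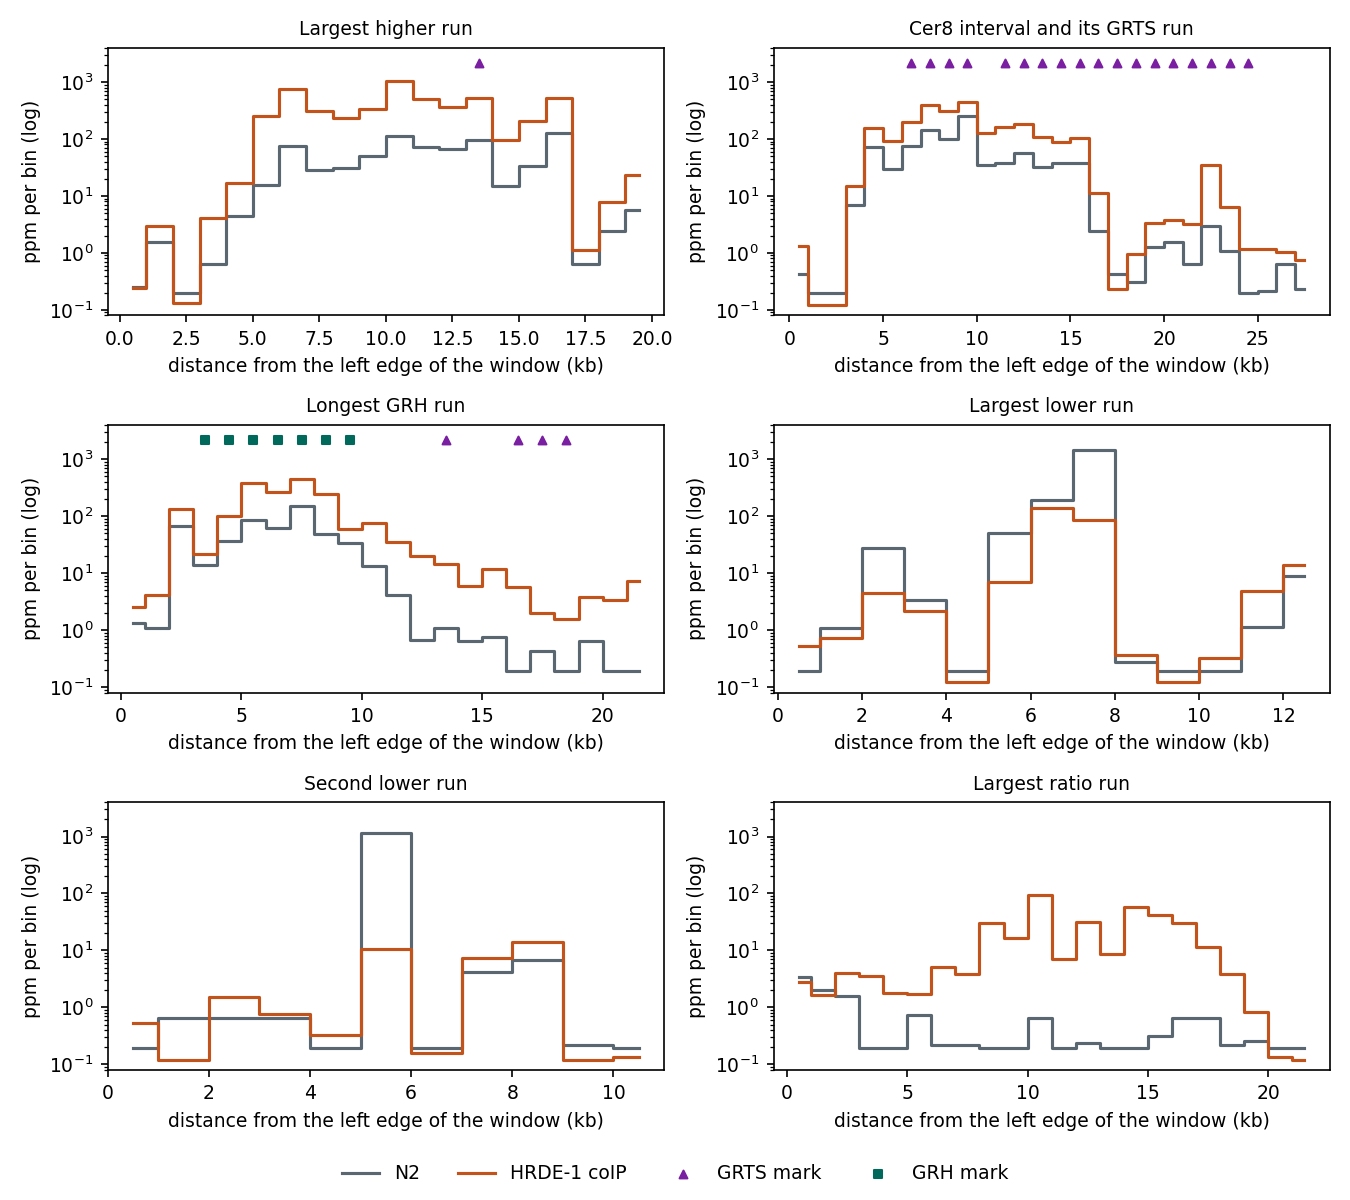
Signal per 1 kb bin (log scale) in both libraries across named regions of the arm, drawn by distance along each region, with GRTS and GRH marks shown. The nhr-15 run stands at 95.2 to 1052 ppm in the coIP over the bins of the gene, and the interval named for Cer8 stands high in both libraries with the coIP 2.59-fold above N2.

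The largest ratios came from runs in which N2 was close to 0, and their intervals were wide. V:388001-404000 holds the nuclear hormone receptor genes nhr-254 and nhr-253, the chemoreceptor gene srh-62 and scl-27, and had 1699 read equivalents in the coIP beside about 4.65 in N2. Its ratio was 163 (67.9 to 532), its coIP bins ranged from 1.72 to 92.4 ppm, and 15 of the 16 bins were higher. V:640001-643000, in nhr-190, had 1.98 and 595 read equivalents, a ratio of 134 with an interval from 36.8 to 1129. V:2158001-2161000, in C45H4.14, had 2.07 and 377, a ratio of 81.6 (22.9 to 643). N2 was all but empty in V:3115001-3119000, over Y73C8C.3 and the C-type lectin gene clec-210, and the coIP held 749 read equivalents. The 95% interval of its ratio began at 88.5. That run holds the strongest of the arm's bins without an N2 read, V:3117001-3118000, with 100.2 ppm in the coIP. In all, 20 bins without an N2 read reached 10 ppm in the coIP.

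Among the longest runs, V:437001-459000 was 22 kb long and covers nhr-123, nhr-98 and the chemoreceptor genes srh-33, srh-34 and srh-35. It held 13.2 ppm in N2 and 346 in the coIP, a ratio of 38.4 (24.7 to 63.5). V:5474001-5494000, over the chemoreceptor genes srg-66 and srg-65, grl-18 and T05C3.6, was 20 kb long with 407 and 1651 ppm, a ratio of 4.06 (3.79 to 4.36). It carries 4 GRTS and 5 GRH bins. Its signal was strongest in the GRH bins at its start, with 59.6 to 454 ppm per bin in the coIP. None of the genes named for this run was assigned to those GRH bins. V:754001-771000, over the serpin genes srp-1 and srp-2, held 12.5 and 106 ppm, a ratio of 11.3 (7.26 to 18.6), and V:2074001-2090000, over gtnt-27, held 22.3 and 146.7 ppm, a ratio of 7.51 (5.50 to 10.5). Except for the run with the marks, these long runs were weak in N2 and of moderate coIP signal.

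Some single genes of at least 2 bins had a high coIP level with little N2 signal. T24A6.20 had 5.41 ppm per kb in N2 and 233 in the coIP, a ratio of 44.4 (29.5 to 70.2). F48G7.4 had 3.08 and 150.2 ppm per kb, a ratio of 51.7 (33.0 to 85.9). The nuclear hormone receptor gene nhr-204 had 6.66 and 171 ppm per kb, a ratio of 26.2 (20.2 to 34.7), and nhr-228 had 1.40 and 99.1, a ratio of 81.6 (41.2 to 190). Among the 1065 protein-coding genes and pseudogenes of at least 2 bins, only Y46H3C.6, nhr-15 and C03A7.2 had a higher coIP level per kb than T24A6.20, at 614, 443 and 292 ppm per kb.

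The nuclear hormone receptor genes, ligand-regulated transcription factors that form an expanded family in C. elegans, recur among these regions. The arm holds 77 nhr genes. Of their 118 measured bins, 55 (46.6%) were higher and 3 lower, with a median log2 ratio of 1.53, against 24.8% higher and 1.05 over all measured bins of the arm. Higher bins lay in 27 of the 77 genes. Without nhr-15 the count was 44 of 107 (41.1%), with a median of 1.44, and the coIP signal of the family dropped from 31.6 to 7.94 ppm per kb. The family's higher bins were most frequent at the tip, where 27 of 39 (69.2%) in the first 500 kb were higher, or 16 of 28 (57.1%) without nhr-15, beside 112 of 295 (38.0%) bins there with no nhr gene. Over the rest of the arm 28 of 79 nhr bins (35.4%) were higher, beside 22.3% of the bins without one. In the right arm 21 of 51 nhr bins (41.2%) were higher and in the centre of V 10 of 47 (21.3%). This family was picked out after its values had been seen, so these counts are a description.

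Chemoreceptor genes are the largest group in the arm, with 344 genes over 634 bins, and most of their bins were nearly empty. Only 136 bins (21.5%) were measured and 197 (31.1%) had no read in either library, against 17.6% of all bins of the arm. Of the measured bins 37 (27.2%) were higher and 3 lower, close to the share over the arm. The families of cytochrome P450 genes (cyp, 12 of 34 higher) and gtnt genes (9 of 23 higher) had larger shares of higher bins. The irld genes, which encode insulin and EGF receptor-like domain proteins, had 0 higher and 2 lower of 10 measured bins. The ugt genes, which encode UDP-glucuronosyltransferases, had 4 higher and 6 lower of 26. The median log2 ratio was -1.20 for irld and -1.07 for ugt, below that of the arm. The summed signal of ugt went the other way from its median, with 1.214 ppm per kb in N2 and 5.767 in the coIP. For irld the summed signal was lower in the coIP, as the median was, and both lower bins lie in 1 gene.

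The 25 GRTS bins and 11 GRH bins of the arm do not overlap, and none of them was lower. Of the 24 measured GRTS bins 11 were higher (45.8%), and of the 10 measured GRH bins 5 were, against 24.8% over the arm. At the minimum 10 times higher, 7 of 16 GRTS bins (43.75%) and 5 of 10 GRH bins were higher, near the 46.4% of all bins of the arm at that signal. Median log2 ratios were 1.85 for GRTS (1.46 to 2.40) and 1.85 for GRH (0.63 to 2.31), against 1.05 (1.02 to 1.05) for unmarked bins of the arm. Over the whole table GRTS bins had a median of 1.45 and GRH bins of 1.88. The coIP signal of the marked bins lay mostly in a few of them: the 5 strongest held 72.5% of that of the GRTS bins and 82.5% of that of the GRH bins, and 12 GRTS bins had under 15 ppm. As shares of the arm, the GRTS bins held 10.3% of its coIP signal and 8.24% of its N2 signal, and the GRH bins 5.74% and 3.83%. All measured bins of the arm at the minimum 10 times higher had a median of 1.77. The marks may rest on related data, so these values are no independent support for them. Of the 755 higher bins 739 (97.9%) carry neither mark, against 98.9% of the measured bins, and they held 86.5% of the coIP signal of the higher bins.

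**Figure D4:**
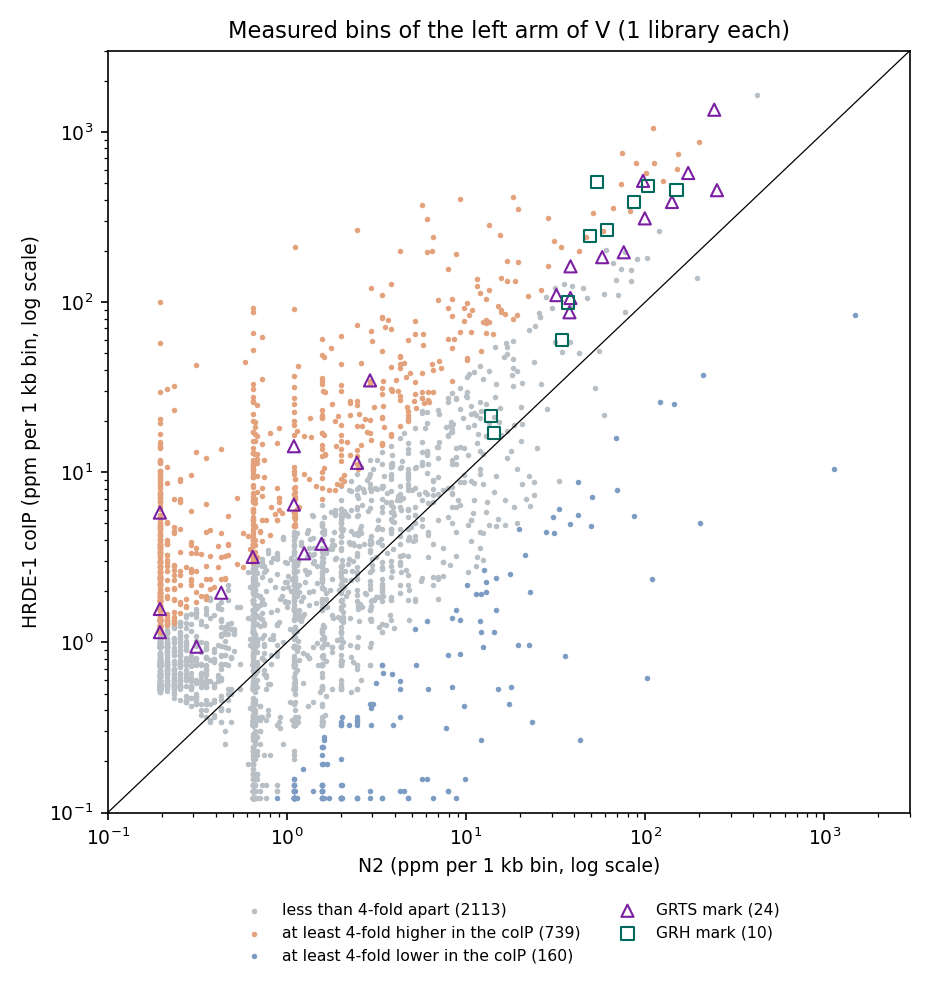
N2 against coIP signal in ppm for the measured bins of the arm (both axes log, 1 library each), coloured by call, with GRTS (triangles) and GRH (squares) bins outlined and the diagonal marking equal signal. Marked bins lie mostly in the upper right, and the 739 unmarked higher bins extend to the left edge, where N2 has no read.

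The longest GRTS run, V:5182001-5201000, has 18 marked bins of 19 and overlaps the interval named for Cer8, an LTR retrotransposon, whose name here is uncertain because the element's position was not matched to the build of the table. In WBcel235 the gene C03A7.13 spans this interval. The interval, V:5179001-5193000, held 920 ppm in N2 and 2400 in the coIP, a ratio of 2.59 (2.47 to 2.72), and 10 of its 14 bins are marked. Both libraries were high over most of the interval, the log2 ratios of its bins ran from 0.85 to 2.15, and only 2 bins were higher. Its ends were set where the coIP fell under 10 ppm, and the 5 bins before it together held 1.21 ppm in N2 and 2.05 ppm in the coIP. The 8 GRTS bins on its right, V:5193001-5201000, over abu-8 and Y47A7.2, were much weaker, with 8.40 and 53.8 ppm, about 15.1 and 258 read equivalents and a ratio of 7.67 (4.57 to 13.9). Of their coIP signal 34.7 ppm lay in 1 bin, V:5198001-5199000. Their log2 ratios ran from -0.65 to 3.52, and 4 of the 8 bins were higher. Without the interval and the GRTS run over it, the median of the arm's other GRTS bins was 2.42.

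The remaining GRTS runs were short. V:1587001-1588000, in F16B4.6, held 174 ppm in N2 and 574 in the coIP, a ratio of 3.28 (2.95 to 3.66). Near grl-18, V:5482001-5483000 and V:5485001-5488000 were weak, with 1.09 and 14.2 ppm in the first and 0.820 and 9.33 in the second. The other GRTS bins lie in the nhr-15 and K09H11.11 runs described above.

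Among GRH runs the longest was V:5472001-5479000, with 432 ppm in N2 and 1531 in the coIP, a ratio of 3.53 (3.30 to 3.78). The pseudogene ZC317.1 lies at the start of this run and was assigned to none of its bins from V:5474001 on. The bins before that position held 21.4 and 99.4 ppm in the coIP. The strongest of the 7 bins of the run, V:5476001-5477000, held 149.6 ppm in N2 and 454 in the coIP. In contrast, the GRH bin in mut-14, V:5659001-5660000, held 14.2 ppm in N2 and 16.9 in the coIP, a ratio of 1.19 (0.776 to 1.86), an interval that includes equal shares. Its log2 ratio of 0.25 turned to -0.21 and -0.43 under the other scalings.

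The 160 lower bins formed 121 runs, of which 90 (74.4%) were single bins and the longest had 4. The lower runs held 32.03% of the arm's N2 signal and 1.07% of its coIP signal. A higher bin had a higher neighbour in 68.0% of cases, against 62.3% over the whole table. A lower bin had a lower one in 36.9%, against 50.4%. These shares also depend on how frequent each call is. In the arm 24.8% of measured bins were higher and 5.25% lower, against 19.4% and 9.04% over the whole table. A difference in clustering beyond that was not tested.

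Among the lower runs V:5586001-5589000 had the most N2 signal, 1724 ppm beside 229 ppm in the coIP, and was 7.58-fold lower (7.09 to 8.11). It covers CD4.11 and 4 annotated non-coding RNAs, and 1 bin, V:5588001-5589000, held 1479 ppm in N2 and 84.5 in the coIP. V:4310001-4311000 holds the tRNA gene ZC132.t1, with 1135 ppm in N2 and 10.4 in the coIP, 111-fold lower (83.8 to 149). Together these bins, the 2 strongest of the arm in N2, were a large part of its N2 signal, and without them the arm's share of N2 was 1.34%.

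V:857001-860000, with the tRNA gene K09C6.t1 and the snRNA gene K09C6.12, held 214 ppm in N2 and 7.46 in the coIP, 30.3-fold lower (21.4 to 44.0). V:5780001-5781000, with the microRNA gene mir-253, held 121 and 25.9 ppm, 4.72-fold lower (3.80 to 5.88). The other lower runs with strong N2 signal lie in protein-coding genes, V:5576001-5579000 in the kinesin light chain gene klc-2 (215 and 38.7 ppm, 5.63-fold lower) and V:5836001-5839000 over the collagen gene col-140 and F26F12.2 (159 and 25.5 ppm, 6.34-fold lower). The bin of klc-2 also holds the annotated non-coding RNA C18C4.17.

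Short RNA genes did not all behave alike, and some share a bin; over the arm 5.25% of measured bins were lower. Of 10 tRNA genes 8 lay in 6 lower bins, and W02G9.t1 and W02G9.t2 did not, with 83.0 ppm in N2 and 134 in the coIP for the first and 77.3 and 87.4 for the second. Of 9 miRNA genes 4 lay in 3 lower bins, among them mir-255 with 42.4 ppm in N2 and 5.64 in the coIP, and 2 were not measured. The bin of mir-8194 was higher, on 19.2 read equivalents in the coIP and 0.990 in N2. The 32 bins with a short RNA gene held 12.6% of the arm's N2 signal and 1.495% of its coIP signal, whereas such bins held 85.6% of N2 in the centre of V and 75.7% in the right arm.

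A few strong bins were balanced, that is, less than 2-fold apart. V:796001-799000, with 1 bin beyond that limit between 2 balanced ones, held 228 ppm in N2 and 473 in the coIP, a ratio of 2.06 (1.87 to 2.27), and the nearby V:791001-794000, with 1 such bin among 3, held 163.5 and 320 ppm, a ratio of 1.95 (1.73 to 2.19). V:5185001-5186000, in the interval named for Cer8, held 252 and 455 ppm, a ratio of 1.79 (1.63 to 1.97). At the other end, the longest stretch without a read in either library was V:5100001-5107000, 7 bins over the chemoreceptor genes srab-1, srab-2 and srab-3. V:526001-532000, with srw-108 and the pseudogenes str-54 and srj-12, and V:587001-593000, with K06H6.1 and gtnt-57, were empty over 6 bins each. With 0 reads in 1 library, up to 3 reads per stretch cannot be told from none.

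**Figure D5:**
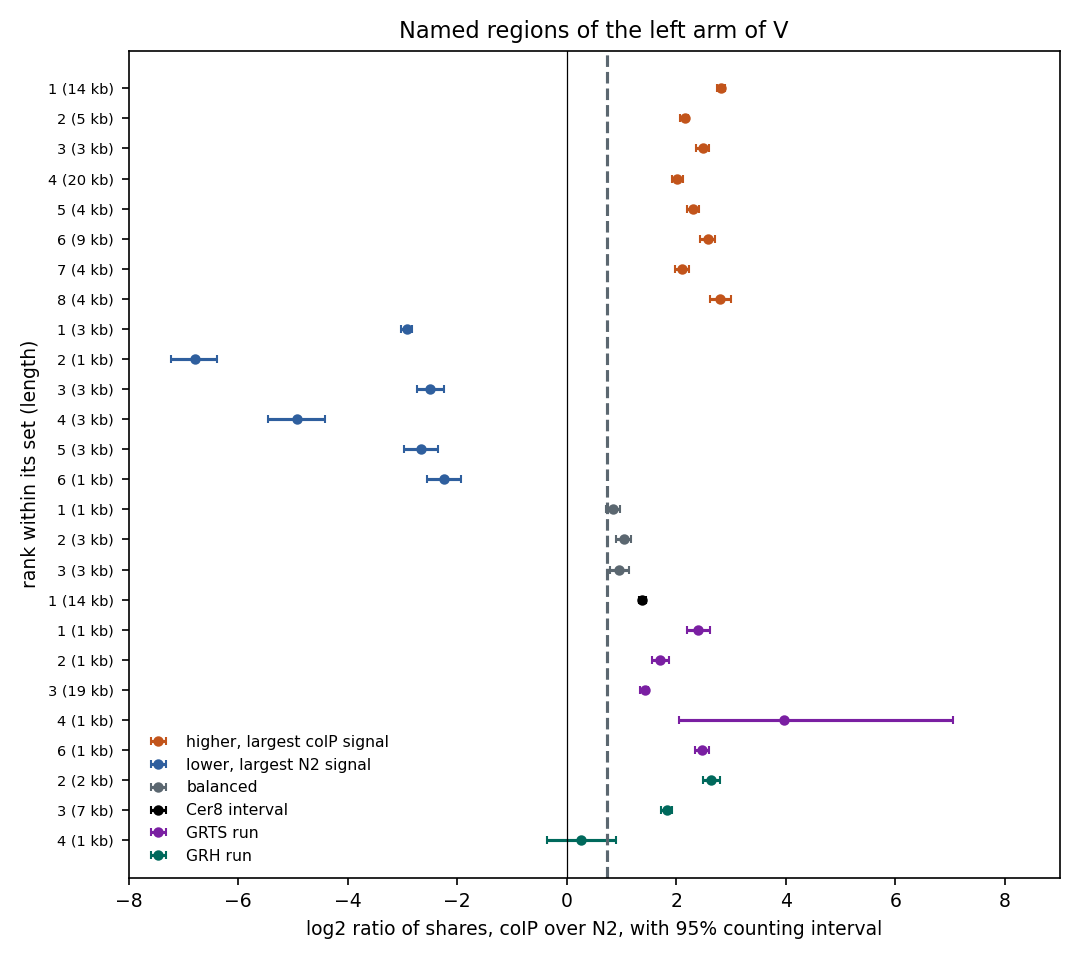
Log2 ratio of shares, coIP over N2, for part of the named regions by set, ordered by rank within each set with the length beside it, with 95% counting intervals and the table's median as a dashed line. The sets with the largest ratios, the longest runs and the empty stretches are not drawn. Runs with under 1 N2 read equivalent are also left out. The 8 higher runs ranked first by coIP signal stand between 4.06-fold and 7.03-fold above N2, and the 6 lower runs between 4.72-fold and 111-fold below it.

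Bins without any annotated gene held 24.1% of the arm's coIP signal and 17.8% of its N2 signal, and 212 of their 773 measured bins (27.4%) were higher. Protein-coding genes outside the chemoreceptor families held 64.2% and 65.2%, with 24.1% of measured bins higher, and pseudogenes held 8.62% and 13.6%, with 20.1% higher. Bins with a fractional number of N2 reads held 64.9% of the arm's N2 signal and 56.4% of its coIP signal. Among the measured ones 21.9% were higher, with a median log2 ratio of 1.04, beside 19.0% and 0.11 among bins with 1 or more whole N2 reads. Bins without an N2 read were measured only where the coIP reached 0.508 ppm, so their log2 ratios start at 0.99 by construction, and with them included the bins without fractions had a median of 1.05. What the fractions stand for is not stated.

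In the authors' deposited table, 744 bins of the arm had a p of at most 0.05 with the coIP higher (11.9% of its bins, against 12.6% over the whole table) and 146 with the coIP lower (2.33%, against 4.82%). Of the 755 bins at least 4-fold higher, 571 passed the p of the authors' deposited table. The 184 that did not pass had at most 3.40 ppm in the coIP. Of the 160 bins at least 4-fold lower, 102 passed and 58 did not. In the authors' deposited table such a p stood at 17 GRTS and 8 GRH bins of the arm. How that p was computed is not stated.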

How the data were processed

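The deposited table gives, per 1 kb bin and library, a coverage signal made by the authors. Bowtie 0.12.7 was used per the submitters' processing notes; for the genome build, filters and treatment of reads with several sites, the method is not given in the sources used here. The deposited signal shows a floor of 0.1 and steps of 1 read above it, within a tolerance of 0.0055. The table also gives the authors' p-value per bin, rounded, method not stated, and their marks.

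Each column was set to 1000000 by its own sum. Ratios of regions used read equivalents above the floor as shares of each library, with exact 95% intervals for counting error. With 1 library per group no test was run. Computation used Python 3.11.15, numpy 2.4.6, pandas 2.3.3, scipy 1.17.1 and matplotlib 3.10.9, and the scripts were tested on simulated data.

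Named regions were the 8 higher runs with most coIP signal, 4 further runs with the largest ratio, the 5 longest, the 6 lower runs with most N2 signal, 3 balanced runs (bins with both libraries at 10 ppm and less than 2-fold apart, gaps of 1 bin bridged), every marked run, the interval named for Cer8 (adjoining bins with 10 ppm or more coIP signal around the start of the longest GRTS run) and the 3 longest empty stretches. A gene was assigned to a bin when it covered 50% of the bin or had 50% of its length there; single genes and families were named after their values were seen, and gene families are those with at least 15 genes in the arm. The members and lists were chosen with earlier results of these data known. Alternatives covered scaling, pseudocount, minimum, floor, fold rule, extent of the arm and whole reads.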

Additional observations from a re-analysis of the deposited data

How the results depend on the processing

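No paired analysis was possible because N2 and the coIP have only 1 library each. Scaling by the median of ratios moved the table's median from 0.73 to 0.19, and totals without the 10 highest bins of either library to 0.10. The arm's median fell with it, from 1.05 to 0.60 and 0.33, and that of GRTS bins from 1.85 to 1.40 and 1.10. It was 0.44 and 1.25 with a pseudocount 10 times larger and smaller, -0.06 without a minimum, 1.77 with a minimum 10 times higher, 1.43 with the floor subtracted and 1.17 over the first 20% of V. The 755 higher bins became 489 without the 10 highest bins in the totals, 367 with the larger pseudocount, 385 with the higher minimum, 1603 at 2-fold and 347 at 8-fold. The 160 lower bins became 394, 59, 58, 485 and 58 in the same order, 300 with the smaller pseudocount and 77 over the first 20% of V. Under each of the scalings, pseudocounts, minimums, fold rules and the floor subtraction, the arm had a larger percentage of higher bins and a smaller one of lower bins than the table. The GRH median stayed within the interval of its main value under every setting run. The N2 share of 1.60% became 0.739% over the first 20%, 1.69% as deposited, 2.74% without the 10 highest bins and 3.07% in bins with whole N2 reads. The coIP share of 4.47% became 3.00%, 4.49%, 4.72% and 3.96%, so that the ratio of shares ran from 1.29 to 4.06. Chosen after seeing the data, leaving out the 2 strongest N2 bins gave 1.34%, and leaving out the interval named for Cer8 and its run gave a GRTS median of 2.42. Scaling by the median of ratios lowered every region's log2 ratio by 0.46, and totals without the 10 highest bins by 0.68. Of 34 region ratios, 24 and 27 left their counting intervals in this way with the sign unchanged. That of V:310001-324000 went from 2.81 to 2.35 and 2.13. The sign of 1, the GRH bin in mut-14, reversed under either scaling, to -0.21 and -0.43. The causes of these changes were not tested.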

Other observations

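Across the 3046 measured bins of the arm, N2 and coIP signal on the log2 scale had a Pearson r of 0.61 and a Spearman rho of 0.45, and 0.33 and 0.23 over the 829 bins at the higher minimum. All bins come from the same 2 libraries, so these values are descriptions. Of the 10 strongest bins of each library, 4 were in both lists. Precision is limited by N2: 529 of the 755 higher bins had under 3 N2 read equivalents. The same held for 6942 of the 11446 higher bins of all chromosomes, a smaller share than in the arm. A pull-down that recovers a transcript better and N2 RNA that holds less of it cannot be told apart in these libraries.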
